A study of Mus musculus with 48 samples.

Results

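The genes described here are 10 immediate early genes, Fos, Fosb, Fosl1, Jun, Junb, Jund, Egr1, Klf6, Csrnp1 and Ier2, out of 55487 genes in the deposited count table. They were matched by gene symbol, and their RNA, their ribosome footprints and the ratio of footprints to RNA were followed in 8 genotypes of Ba/F3, a mouse cell line that needs interleukin 3 (IL-3) to grow. The genes were selected on measured values, with earlier results of these data known: Fosl1 RNA and Csrnp1 footprints had been seen higher in Rpl22+/- clones than in wild-type clones. The Rpl22+/- values are therefore given as a description, with no test. The same wild-type clones are the reference in every other comparison with wild type. Tests of Fosl1 RNA and Csrnp1 footprints against wild type in other genotypes therefore carry part of this selection.

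Each genotype had 3 clones, made with CRISPR-Cas9 per the series' design text, and the lysate of each clone was divided into 1 RNA library and 1 footprint library, 48 libraries in all. The genotypes were wild type (WT), heterozygous loss of the large-subunit ribosomal protein genes Rpl5, Rpl11 or Rpl22 (Rpl5+/-, Rpl11+/-, Rpl22+/-), homozygous loss of Rpl22 (Rpl22-/-), homozygous substitution R98S of the large-subunit protein gene Rpl10 (Rpl10 R98S), and homozygous P131S or H137Y substitution of the small-subunit protein gene Rps15. All clones grew in RPMI-1640 medium with 10% serum and 1 ng/ml IL-3, and all were given cycloheximide, which stops elongating ribosomes, at 0.1 mg/ml for 1 min before harvest. RNA libraries were made from polyadenylated RNA, and footprint libraries from ribosome-protected fragments of 28 to 30 nucleotides. The labels give the Rpl10 and Rps15 substitutions on both alleles, for P131S only in the titles of the footprint libraries. Each clone was sampled once, so p-values measure the spread between clones. Every comparison with WT uses the same 3 WT clones, and results of different genotypes are therefore not independent of each other.

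Immediate early genes are transcribed within minutes of a growth factor or cytokine signal, without new protein synthesis, and their messenger RNAs are short-lived. In cells that depend on IL-3, the receptor acts through the kinase JAK2, Ras and the ERK kinases on serum response factor and its cofactors at the promoters of several of these genes. Proteins of the Fos family pair with proteins of the Jun family to form AP-1, a leucine zipper transcription factor. EGR1 and KLF6 are zinc finger transcription factors, CSRNP1 is a nuclear DNA-binding protein, and IER2 is a small nuclear protein.

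Depth and identity were looked at before the genes. RNA libraries held 13029073 to 38258559 estimated counts (median 27496294) and footprint libraries 15598994 to 72044439 (median 49233988). The lowest footprint total belonged to Rpl22+/- clone 60. RNA of the targeted gene was lower than in every WT clone in all Rpl5+/- clones (1534 to 1588 CPM, meaning counts per scaled library total, against 2283 to 2338) and in all Rpl11+/- clones (1008 to 1150 CPM against 1665 to 1686). Rpl22 footprints were 2351 to 2784 CPM in WT clones, 1428 to 1596 CPM in Rpl22+/- clones, and 274 and 317 CPM in Rpl22-/- clones 649 and 776. The library labelled Rpl22-/- clone 30 went against its label, with 1544 CPM of Rpl22 footprints, so the Rpl22-/- calls are also given without this clone. The RNA of Rps15 itself differed among the substitution clones: it was 907 CPM in P131S clone 24 against 1825 and 1935 CPM in clones 63 and 20, and 1829 CPM in H137Y clone 16 against 817 and 875 CPM in clones 6 and 2. A substitution cannot be checked from gene counts.

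Ba/F3 is described as a pro-B line. Of its B-lineage markers, Pax5, Ebf1, Vpreb1 and Igll1 were below 1 CPM in all 24 RNA libraries, while Cd79a and Cd79b were not. The T-cell markers Cd3e, Cd4 and Cd8a were all below 1 CPM. The 3 IL-3 receptor genes Il3ra, Csf2rb and Csf2rb2 summed to 876 to 1039 CPM in WT clones, 2234 to 2845 CPM in P131S clones and 1421 to 2511 CPM in H137Y clones. They were also above WT in Rpl5+/- (1278 to 1337 CPM), Rpl11+/- (1071 to 1945) and Rpl22+/- (1149 to 1495), and overlapped WT in Rpl22-/- (869 to 1074) and Rpl10 R98S (929 to 978). The 6 granulocyte and monocyte markers summed to 31.5 to 42.8 CPM in WT, 50.7 to 111 CPM in P131S and 47.6 to 178 CPM in H137Y, and were below WT in Rpl10 R98S (19.2 to 22.6 CPM), with Elane below 1 CPM in every RNA library. The haematopoietic markers Ptprc, Spn and Cd44 summed to 379 to 583 CPM over all clones, and the 2 erythroid markers found to 74.6 to 97.6 CPM in WT, 48.7 to 70.9 CPM in P131S and 91.3 to 297 CPM in H137Y. The part of these marker levels in the results below was not tested. In bulk libraries, fewer cells of a type and less RNA per cell cannot be told apart.

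In the RefSeq annotation of GRCm38.p6 the genes lie apart from each other: Fos at chr12:85473890-85477274, Fosb at chr7:19302696-19310118, Fosl1 at chr19:5447698-5455938, Jun at chr4:95049036-95052222, Junb at chr8:84976909-84978748 and Jund at chr8:70697739-70700616. Klf6 lies at chr13:5861489-5870393, Csrnp1 at chr9:119971163-119984742 and Ier2 at chr8:84661331-84662852. The spans of Fosl1 and Ccdc85b overlap, those of Csrnp1 and the long non-coding RNA Gm33800 overlap, and Junos is annotated beside Jun. Whether counting used strand is not given in the sources used here, so reads of such pairs may not be separable.

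The RefSeq promoter table (GRCm38.p6) holds 10 start sites of 7 of these genes. Excerpts of the 250 bases before the start are shown where RNA changed and the window held AP-1 or cyclic AMP response element letters. They are read 5′ to 3′ on the strand of the gene. Jund RNA changed too, but its window held no match to any motif searched, so it has no excerpt. Capitals mark chosen motif matches, and other matches in the excerpts are left in lower case.
Fos, chr12:85473810-85473869, plus strand: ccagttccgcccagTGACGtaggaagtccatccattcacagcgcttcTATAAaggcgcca
Fosb, chr7:19310066-19310125, minus strand: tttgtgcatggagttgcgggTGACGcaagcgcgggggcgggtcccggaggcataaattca
Jun, chr4:95052258-95052317, minus strand: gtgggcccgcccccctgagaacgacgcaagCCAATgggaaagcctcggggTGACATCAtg
Klf6, chr13:5861354-5861413, plus strand: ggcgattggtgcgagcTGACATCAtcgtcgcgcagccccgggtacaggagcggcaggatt
Csrnp1, chr9:119983104-119983133, minus strand: aggcttggTGAGTCAcggaccccgggaggg
Csrnp1, chr9:119983024-119983063, minus strand: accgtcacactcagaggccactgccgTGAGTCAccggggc
The capitals mark TGACG (the start of the cyclic AMP response element), the TATA box letters TATAA, the box CCAAT, the AP-1 variant TGACATCA, and the AP-1 site TGACTCA, which reads TGAGTCA on the other strand. TGACTCA and TGACATCA share the first 4 letters of TGACG but were counted apart from it. Both strands were searched over all 32851 start sites of the table, in windows of 250 bases. TGACTCA stood before 4.46% of start sites, among them 1 of the 10 member start sites. That start is 1 of several listed for Csrnp1 and lies at chr9:119983023, inside the gene span given above. TGACATCA stood before 2.93%, among them Jun (positions -45 to -38 from the start) and Klf6, and TGACG before 17.8%, among them 7 member start sites. Several of these 7 are start sites of Csrnp1, so the numbers count start sites and not genes. TATAA was found before 22.8% of start sites and 1 member start, CCAAT before 33.8% and 4, and GGGCGG before 32.7% and 5. The serum response factor motif CArG stood before 1.47% of start sites, and no member window held a match. Letters farther than 250 bases before a start were not searched, and the promoter table held no start of Fosl1 or Ier2. An absence of CArG from these genes is therefore not shown. A match is a description of these letters and not a binding site.

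Of the 10 genes, 9 had enough counts to be tested. Changes are log2 ratios fitted by limma voom, given with their standard error (SE), and a gene was called where the adjusted p was under 0.05. In RNA, 6 of 9 were called higher in Rpl11+/- against WT, where 12.5% of all tested genes were called in either direction, and 5 of 9 were called higher in Rpl22-/-, where 5.11% of genes were. In Rpl10 R98S 2 of 9 were called higher, against 13.4% of all genes. Without the clone labelled 30, 2 were called in Rpl22-/-, where 2.4% of all genes were. Substitution P131S had 5 called higher and 2 lower, where 47.2% of all genes were called. H137Y had 4 higher and 1 lower, where 41.4% were. Each of these counts holds Fosl1, whose RNA against the same WT clones was part of the choice of genes. They are therefore not read as an excess over the shares of all genes. In Rpl5+/-, limma voom called 0 of 9 in RNA with 0.897% of all genes called, edgeR called 0 and DESeq2 called 1, Klf6. An unadjusted p under 0.05 was reached by 2 of the 9, and the share of all genes at that threshold is not given here.

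Footprint calls were fewer and all of them were higher than WT. They numbered 2 of 9 in Rpl11+/- (0.228% of all genes called), 3 in Rpl22-/- (0.234%), 2 in Rpl10 R98S (2.45%), 5 in P131S (19.1%) and 3 in H137Y (12.9%). The Rpl22-/- number was 1 without the clone labelled 30, where 0.0495% of all genes were called. Csrnp1, whose footprints were part of the choice of genes, is among the calls in Rpl11+/-, Rpl22-/-, P131S and H137Y. These counts are therefore not read as an excess over the shares of all genes. In Rpl5+/-, limma voom called 0 of 9 with 0.00617% of all genes called, and edgeR and DESeq2 also called 0. Here too 2 of the 9 had an unadjusted p under 0.05, without a share of all genes to set beside it.

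**Figure D1:**
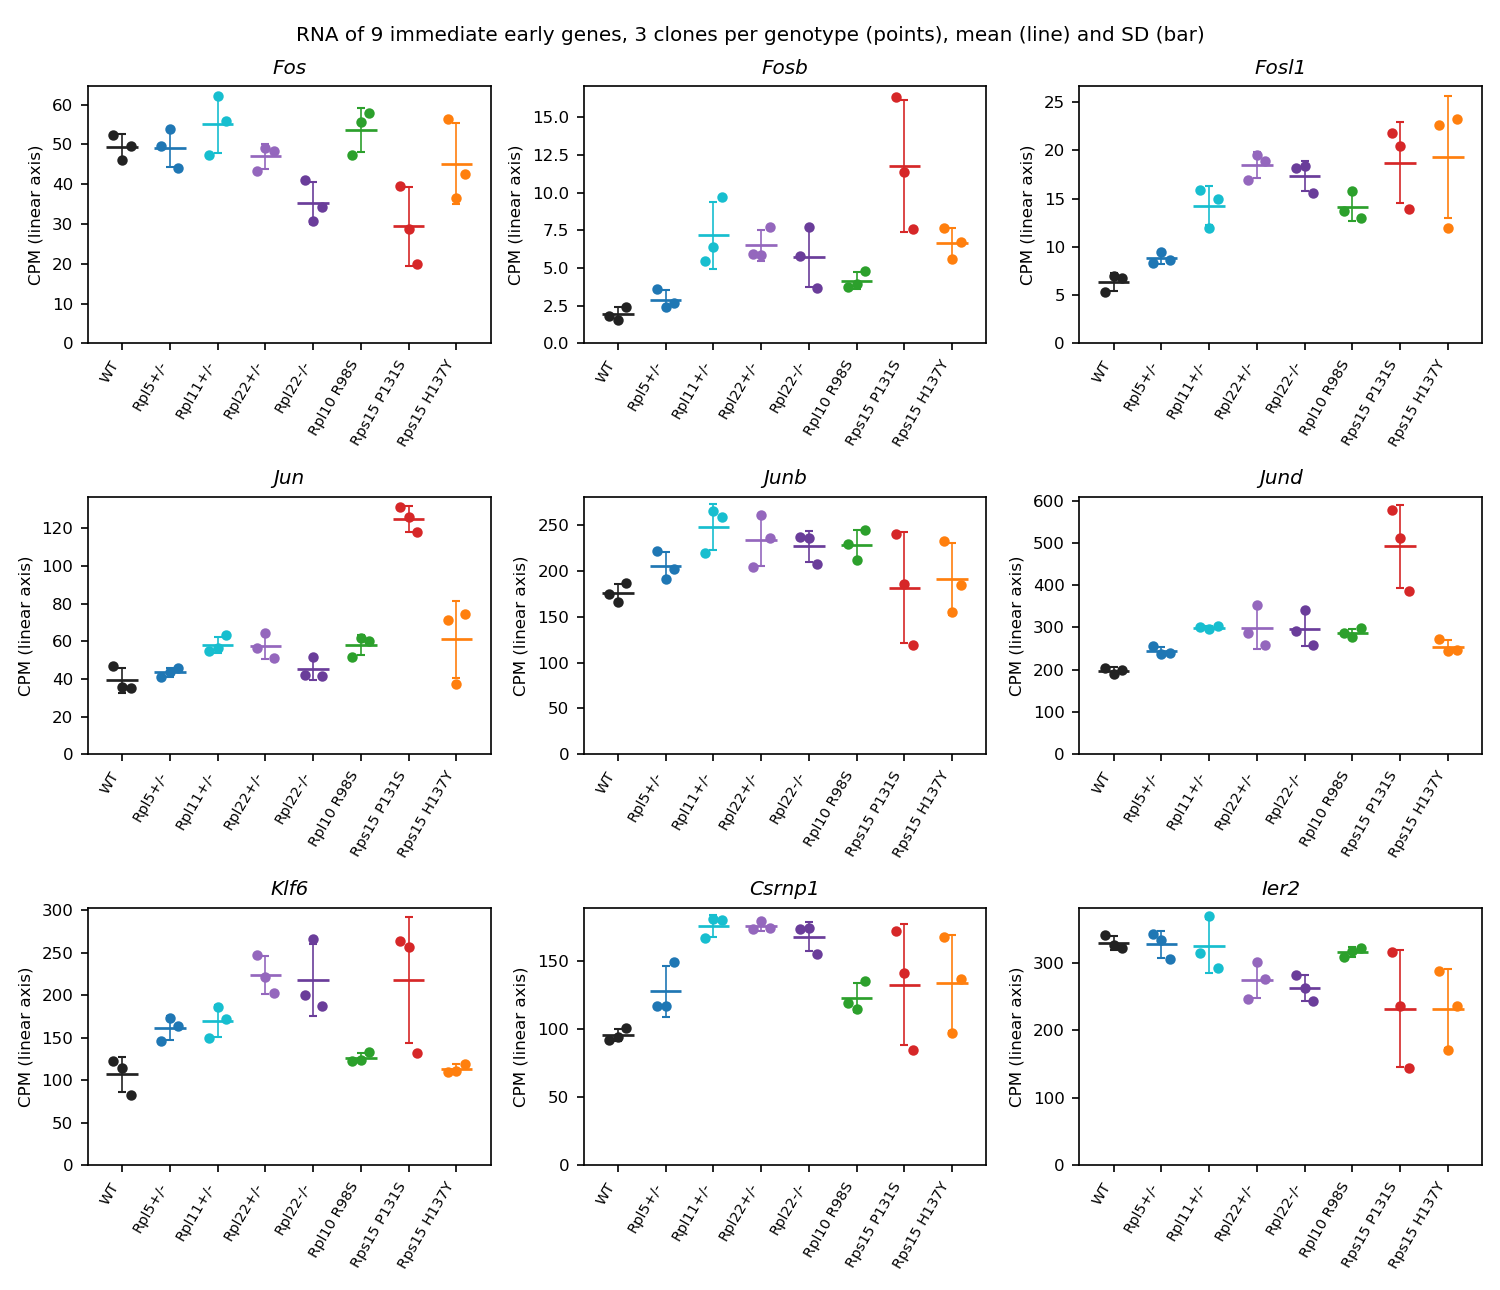
RNA level in CPM (vertical axes, linear, from 0) of 9 immediate early genes in each clone (points) of 8 genotypes (horizontal axes), with the mean of 3 clones as a line and the SD as a bar. Fosl1 lay above all WT clones in every mutant clone, and Jun and Jund were highest in P131S, with means of 124.9 and 491 CPM. Fosl1 RNA in Rpl22+/- against WT was part of the choice of genes.

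Among the Fos family, Fosl1, which encodes the AP-1 subunit FRA-1, was called higher in RNA in 5 genotypes, as many as any member. Its RNA was 5.28, 7.0 and 6.76 CPM in WT clones 3, 2 and 1. It was 11.9 to 15.9 CPM in Rpl11+/-, 15.6 to 18.4 in Rpl22-/-, 13.0 to 15.8 in Rpl10 R98S, 13.9 to 21.8 in P131S and 11.97 to 23.3 in H137Y. No clone of these 5 genotypes overlapped WT, whose clones were also used in the choice of genes by Fosl1 RNA. The increases were 1.16 ± 0.26 (log2 change, SE; adjusted p = 0.00611), 1.48 ± 0.25 (0.00134), 1.17 ± 0.26 (0.0053), 1.52 ± 0.25 (6.08e-05) and 1.55 ± 0.25 (5.73e-05) in that order. Without the clone labelled 30 the Rpl22-/- value was 1.45 (0.00824). In Rpl5+/- the clones held 8.35 to 9.49 CPM, above all WT clones, and the difference of 0.47 ± 0.30 did not pass (adjusted p = 0.512).

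Fosl1 footprints were 3.59 to 4.53 CPM in WT. They rose in Rpl10 R98S (9.78 to 11.7 CPM; 1.37 ± 0.31, adjusted p = 0.0207), Rpl22-/- (11.7 to 13.9 CPM; 1.65 ± 0.30, 0.017), P131S (10.8 to 15.0 CPM; 1.59 ± 0.31, 0.00113) and H137Y (13.9 to 14.4 CPM; 1.75 ± 0.31, 0.000833). The Rpl11+/- clones lay at 7.35 to 11.7 CPM (1.20 ± 0.32, adjusted p = 0.121), a difference that DESeq2 called (0.00455). Leaving out 1 clone ended the Rpl10 R98S call, at log2 changes of 1.27 to 1.44, for clones A29 (adjusted p = 0.0657), A30 (0.0737) and WT clones 1 (0.103), 2 (0.0859) and 3 (0.0513). It ended the Rpl22-/- call, at 1.55 to 1.72, for clones 30 (0.0948) and 649 (0.0632) and WT clones 1 (0.101), 2 (0.0915) and 3 (0.0852), and without clone 414 the Rpl11+/- difference passed (1.39, 0.0372).

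Fosb, another partner of the Jun proteins, was scarce in WT, with 1.85, 1.56 and 2.44 CPM of RNA (44 to 71 counts). It rose to 5.45 to 9.70 CPM in Rpl11+/- (1.85 ± 0.38, adjusted p = 0.00358), 3.71 to 7.73 in Rpl22-/- (1.62 ± 0.39, 0.0168), 7.59 to 16.4 in P131S (2.51 ± 0.36, 1.43e-05) and 5.58 to 7.63 in H137Y (1.78 ± 0.38, 0.000778). All 12 of those clones were above the WT clones. The Rpl10 R98S clones, at 3.75 to 4.80 CPM, also stood above WT, and their difference of 1.05 ± 0.40 did not pass in limma voom (adjusted p = 0.0861) but passed in edgeR (0.0205) and DESeq2 (0.00527). The Rpl22-/- call was lost without clone 30 (1.401, 0.0933), clone 649 (1.64, 0.056), WT clone 2 (1.47, 0.0863) or WT clone 3 (1.59, 0.0719). Fosb footprints came from 6 to 31 counts in WT, and only P131S was called (0.083 to 0.57 against 1.24 to 3.50 CPM; 2.81 ± 0.88, adjusted p = 0.0293). That call was lost in edgeR (0.0997) and without clone 20 (2.92, 0.0502), clone 24 (2.41, 0.0843) or WT clone 1 (1.81, 0.189), 2 (3.297, 0.0503) or 3 (3.21, 0.0542), and with no filter on low counts (0.0796).

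Fos itself, the founding member of the family, did not share these increases. Its RNA was 52.4, 46.0 and 49.5 CPM in WT clones 3, 2 and 1 and 39.5, 28.8 and 19.8 CPM in P131S clones 24, 63 and 20, a fall by 0.81 ± 0.19 (adjusted p = 0.00174) with no overlap. Without clone 20 the fall was by 0.54 (0.0187). It was 30.7 to 41.1 CPM in Rpl22-/-, all below WT, a difference that did not pass (-0.48 ± 0.19, adjusted p = 0.172; without the clone labelled 30, -0.36 and 0.508). In the other tested genotypes the Fos RNA clones overlapped WT. Fos footprints were called in no genotype: they were 34.1 to 42.5 CPM in WT and 25.7 to 63.6 CPM in P131S, and in H137Y all 3 clones lay above WT at 47.9 to 73.6 CPM (0.69 ± 0.24, adjusted p = 0.0577). The H137Y difference passed without clone 2 (0.86, 0.04), in DESeq2 (0.0274) and under median-of-ratios scaling (0.0489). All clones also lay above WT in Rpl11+/-, at 50.7 to 66.0 CPM (0.72 ± 0.23, adjusted p = 0.207), and in Rpl22-/-, at 43.0 to 44.0 CPM (0.25 ± 0.23, 0.897; without the clone labelled 30, 0.23 and 0.929).

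**Figure D2:**
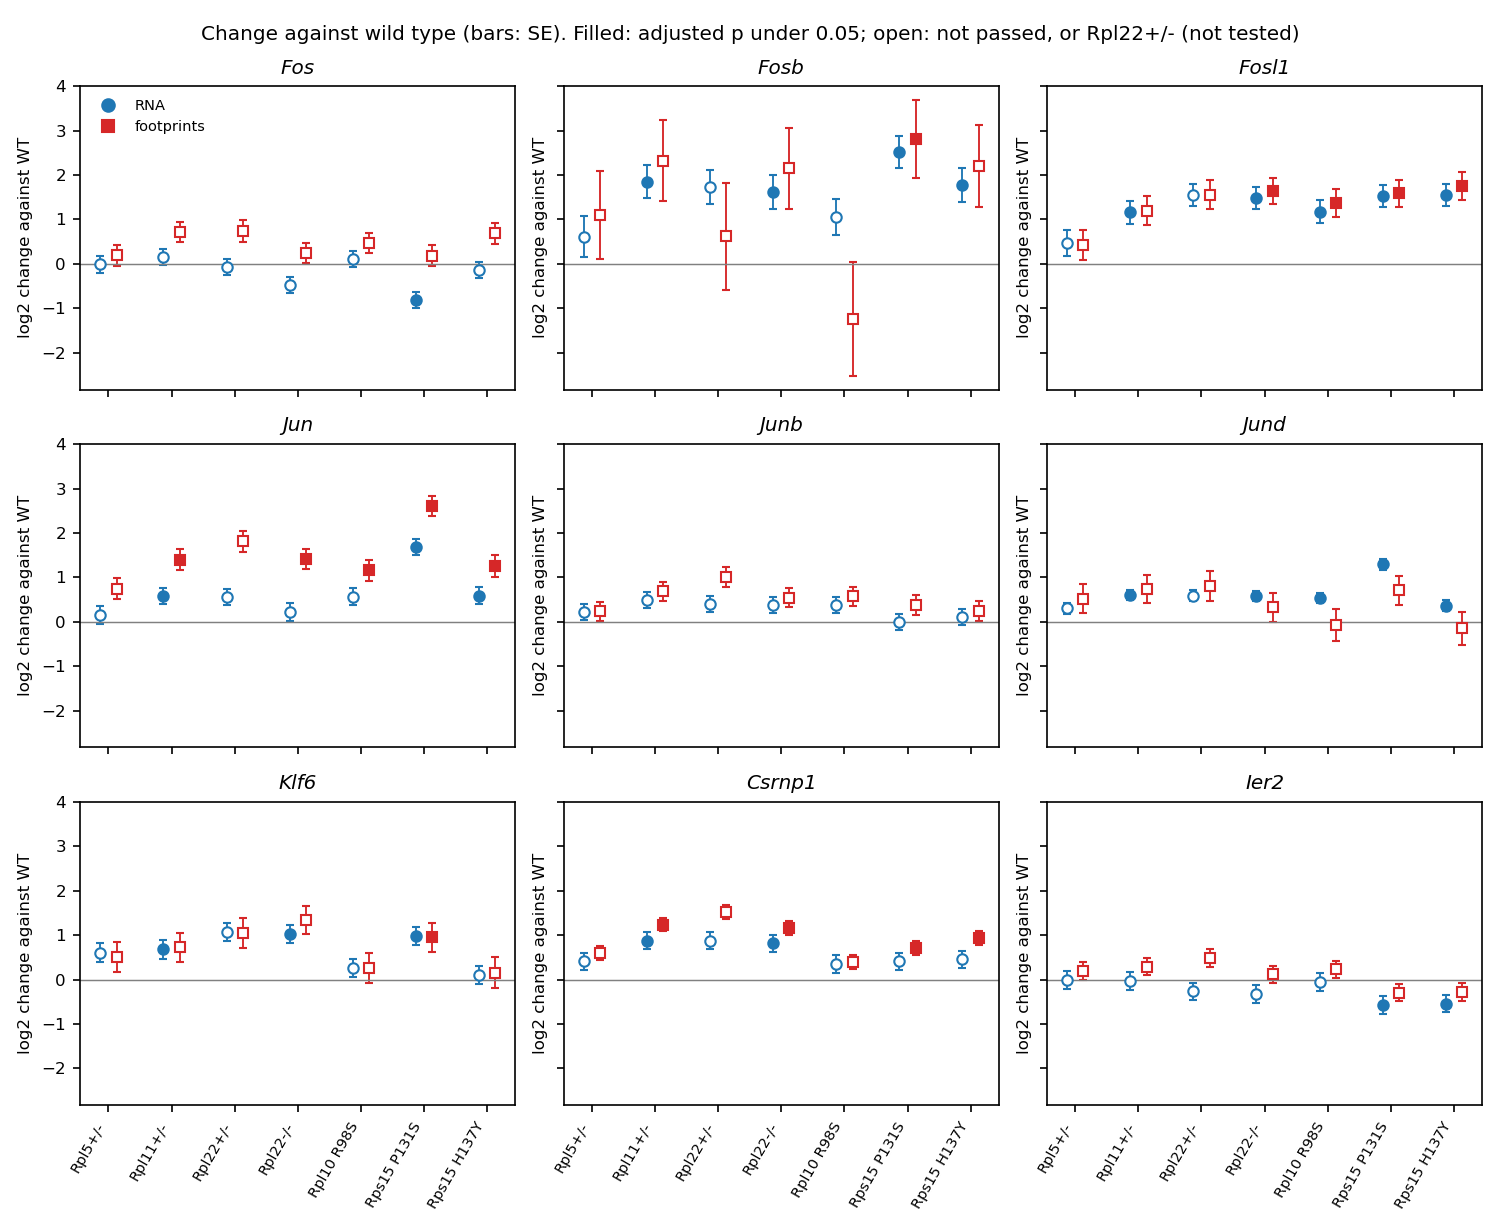
Log2 change against WT (vertical axes) of RNA (circles) and footprints (squares) for 9 genes in 7 mutant genotypes (horizontal axes); bars are the SE, filled symbols passed an adjusted p of 0.05, and Rpl22+/- was not tested. Jun footprints lay above Jun RNA in all 7 genotypes, and Jund RNA above Jund footprints in Rpl22-/-, Rpl10 R98S, P131S and H137Y.

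Jun, which encodes c-JUN, the main activating partner in AP-1, had its highest RNA in P131S. Its RNA was 46.7, 35.6 and 35.4 CPM in WT and 131.2, 126 and 118 CPM in P131S (1.68 ± 0.18, adjusted p = 1.15e-06). The H137Y clones 16 and 2 held 71.4 and 74.2 CPM, and clone 6 held 37.4 CPM, within the WT range (0.59 ± 0.19, adjusted p = 0.0167). Without clone 6 the H137Y change was 0.91 ± 0.12 (adjusted p = 5.46e-06), and the call was lost without clone 16 (0.44, 0.095), clone 2 (0.43, 0.0854), WT clone 1 (0.52, 0.066) or WT clone 2 (0.53, 0.0641). In Rpl11+/- Jun RNA was 54.6 to 63.1 CPM (0.58 ± 0.19, adjusted p = 0.0496), a call that was lost without any 1 of the 6 clones (0.51 to 0.71, adjusted p from 0.0505 to 0.171) and with no filter on low counts (0.0756). Rpl10 R98S clones were at 51.7 to 61.8 CPM, above WT (0.57 ± 0.19, adjusted p = 0.0545), and passed in edgeR (0.0463) and DESeq2 (0.013).

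Footprints of Jun changed in more genotypes than those of any other member. WT clones held 21.0, 13.9 and 14.1 CPM. All clones of the 5 called genotypes were higher: Rpl11+/- at 35.9 to 53.6 CPM (1.398 ± 0.232, adjusted p = 0.0175), Rpl22-/- at 32.1 to 54.8 (1.42 ± 0.23, 0.00556), Rpl10 R98S at 32.3 to 39.4 (1.16 ± 0.23, 0.0109), P131S at 85.5 to 111 (2.61 ± 0.22, 6.72e-07) and H137Y at 36.3 to 40.7 (1.26 ± 0.24, 0.00153). The Rpl5+/- clones, at 21.7 to 31.2 CPM, were also above WT, and their 0.74 ± 0.24 did not pass (adjusted p = 0.759). The Rpl11+/- call was lost when clone 22 (1.22, 0.152), WT clone 1 (1.297, 0.127) or WT clone 2 (1.31, 0.105) was left out. The Rpl22-/- call was lost when clone 30 (1.19, 0.0801), WT clone 1 (1.32, 0.0697) or WT clone 2 (1.33, 0.0634) was left out, and the Rpl10 R98S call when WT clone 1 was (1.06, 0.0883). Fits of the 2 genotypes alone also lost the Rpl11+/- (0.172) and Rpl22-/- (0.0647) calls.

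Jund, encoding a Jun protein that is made more steadily than the others, was called higher in RNA in the 5 tested genotypes other than Rpl5+/-. WT clones held 205, 190 and 199 CPM. Its RNA rose to 296 to 302 CPM in Rpl11+/- (0.60 ± 0.12, adjusted p = 0.00313), 259 to 341 in Rpl22-/- (0.58 ± 0.12, 0.00569), 278 to 298 in Rpl10 R98S (0.54 ± 0.12, 0.00559), 386 to 578 in P131S (1.29 ± 0.12, 1.2e-07) and 245 to 273 in H137Y (0.36 ± 0.12, 0.0196). No clone of these genotypes overlapped WT. The Rpl5+/- clones, at 238 to 255 CPM, were also above WT, and their change of 0.305 did not pass. Without the clone labelled 30 the Rpl22-/- value was 0.48 (adjusted p = 0.0517), and the H137Y call was lost without clone 16 (0.31, 0.0782) or WT clone 2 (0.33, 0.0664). Jund footprints were called in no genotype: WT clones spread from 5.17 to 13.2 CPM, and all mutant clones lay between 5.21 and 18.8 CPM.

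Junb, which encodes a Jun protein with weaker activating power than c-JUN, was called at neither level in any genotype in the main fit. Its RNA was 166 to 187 CPM in WT, and 219 to 266 CPM in Rpl11+/-, above all WT clones (0.49 ± 0.18, adjusted p = 0.0766). DESeq2 called that difference (0.0282). All Junb RNA clones also lay above WT in Rpl5+/- (191 to 222 CPM, 0.22), Rpl22-/- (207 to 237 CPM, 0.37) and Rpl10 R98S (212 to 245 CPM, 0.38). None of these differences passed in the main fit. Fits of the 2 genotypes alone called Junb RNA higher in Rpl5+/- (adjusted p = 0.0239), Rpl11+/- (0.0177), Rpl22-/- (0.00569) and Rpl10 R98S (0.00066). Junb footprints were 111 to 165 CPM in WT and 190 to 258 CPM in Rpl11+/- (0.68 ± 0.22, adjusted p = 0.21). They also lay above all WT clones in Rpl22-/- (177 to 224 CPM, 0.545) and Rpl10 R98S (185 to 211 CPM, 0.573), and neither passed in the main fit. A fit of the 2 genotypes alone called the Rpl10 R98S footprint difference (adjusted p = 0.0399).

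Of the zinc finger factors, Egr1, which lies at chr18:34861207-34864956 in GRCm38.p6, was close to absent. It had 0 to 7 counts in an RNA library and 0 to 16 in a footprint library, with 0 in 2 of 24 libraries of each kind, and it was left out of the tests. Klf6, a regulator of growth and differentiation, had 123, 114 and 83.3 CPM of RNA in WT. It rose in Rpl11+/- (150 to 187 CPM; 0.68 ± 0.20, adjusted p = 0.0359), Rpl22-/- (188 to 266 CPM; 1.03 ± 0.21, 0.00523) and P131S (132 to 264 CPM; 0.98 ± 0.20, 0.000769). The H137Y clones, at 110 to 119 CPM, lay within the WT range. Those of Rpl5+/-, at 146 to 173 CPM, all lay above WT (0.61), a difference that passed in DESeq2 (0.043) but not in limma voom. In Rpl22-/- without clone 30 the value was 0.88 (adjusted p = 0.041). The Rpl11+/- call was lost without clone 22 (0.67, 0.11), 406 (0.77, 0.0519) or 414 (0.61, 0.0801), without WT clone 1 (0.51, 0.153) or 2 (0.74, 0.064), and with no filter on low counts (0.081).

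Klf6 footprints in P131S were 110, 99.1 and 31.1 CPM in clones 24, 63 and 20, against 33.5 to 38.8 CPM in WT. The change of 0.96 ± 0.33 (adjusted p = 0.0446) became 1.56 ± 0.19 (6.59e-05) without clone 20, the only one of the 3 below WT. It was lost without clone 24 (0.64, 0.186), clone 63 (0.69, 0.189) or WT clone 1 (0.899, 0.131), 2 (0.96, 0.092) or 3 (1.01, 0.0802), with no filter on low counts (0.145) and in a fit of the 2 genotypes alone (0.274). The Rpl22-/- clones all lay above WT, at 77.1 to 111 CPM (1.33 ± 0.32, adjusted p = 0.0926), and DESeq2 called that difference (0.00159). Without the clone labelled 30 it was 1.16 (0.339).

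Csrnp1 RNA was 91.9, 94.2 and 101 CPM in WT. It rose to 167 to 181 CPM in Rpl11+/- (0.88 ± 0.20, adjusted p = 0.00731) and 156 to 175 CPM in Rpl22-/- (0.81 ± 0.20, 0.019), with no overlap. Clones of Rpl5+/- (117 to 150 CPM, 0.41) and Rpl10 R98S (115 to 135 CPM, 0.36) were also all above WT, and neither passed. The Rpl22-/- call was lost when clone 30 (0.79, 0.0798), clone 649 (0.79, 0.0733), WT clone 2 (0.803, 0.0652) or WT clone 3 (0.79, 0.0747) was left out. In P131S clone 20 held 84.6 CPM against 172 and 142 CPM in clones 24 and 63, and the difference of 0.41 ± 0.20 did not pass (adjusted p = 0.0935). It became 0.71 (0.00144) without clone 20, and the H137Y difference of 0.45 ± 0.20 (0.0704) became 0.67 (0.00903) without clone 6, which held 97.5 CPM against 168 and 137.2 CPM. DESeq2 called both differences (0.0206 in P131S, 0.019 in H137Y) and edgeR that in H137Y (0.0486).

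Csrnp1 footprints, which were part of the choice of genes, lay above WT in every mutant clone, those of Rpl22+/- included. WT clones held 38.5 to 46.6 CPM. They rose in Rpl11+/- (93.2 to 109 CPM; 1.24 ± 0.15, adjusted p = 0.000526), Rpl22-/- (82.7 to 105 CPM; 1.16 ± 0.15, 0.00066), P131S (52.8 to 87.6 CPM; 0.70 ± 0.16, 0.00333) and H137Y (74.2 to 89.5 CPM; 0.94 ± 0.16, 0.000548). These 4 calls held without any 1 clone, and without the clone labelled 30 the Rpl22-/- value was 1.06 (0.0115). The same WT clones were used in the choice of genes, so these calls carry part of that selection. Rpl5+/- clones were at 55.5 to 74.9 CPM (0.60 ± 0.16, adjusted p = 0.594) and Rpl10 R98S clones at 51.4 to 59.5 CPM (0.40 ± 0.16, 0.2), and neither passed.

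Ier2 RNA moved the other way in the Rps15 substitutions. It was 340, 325 and 322 CPM in WT, 317, 235 and 144 CPM in P131S clones 24, 63 and 20, and 287, 171 and 236 CPM in H137Y clones 16, 6 and 2. It fell by 0.58 ± 0.20 in P131S (adjusted p = 0.0241) and by 0.54 ± 0.20 in H137Y (0.0388). The P131S call was lost without clone 20 (-0.27, 0.189) or WT clone 3 (-0.56, 0.0644). The H137Y call was lost without clone 6 (-0.33, 0.198), clone 2 (-0.57, 0.0632) or WT clone 1 (-0.56, 0.0708), 2 (-0.55, 0.0758) or 3 (-0.52, 0.0955). Fits of the 2 genotypes alone called neither (0.129 and 0.0546). In Rpl22-/- all clones also lay below WT, at 243 to 282 CPM (-0.33, and -0.381 to -0.274 with 1 clone left out). That difference did not pass in the main fit but passed in a fit of the 2 genotypes alone (-0.33, adjusted p = 0.00489). Ier2 footprints were called in no genotype, with 355 to 436 CPM in WT, 204 to 481 in P131S and 274 to 365 in H137Y, although without P131S clone 24 the P131S difference passed (-0.59, 0.022).

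**Figure D3:**
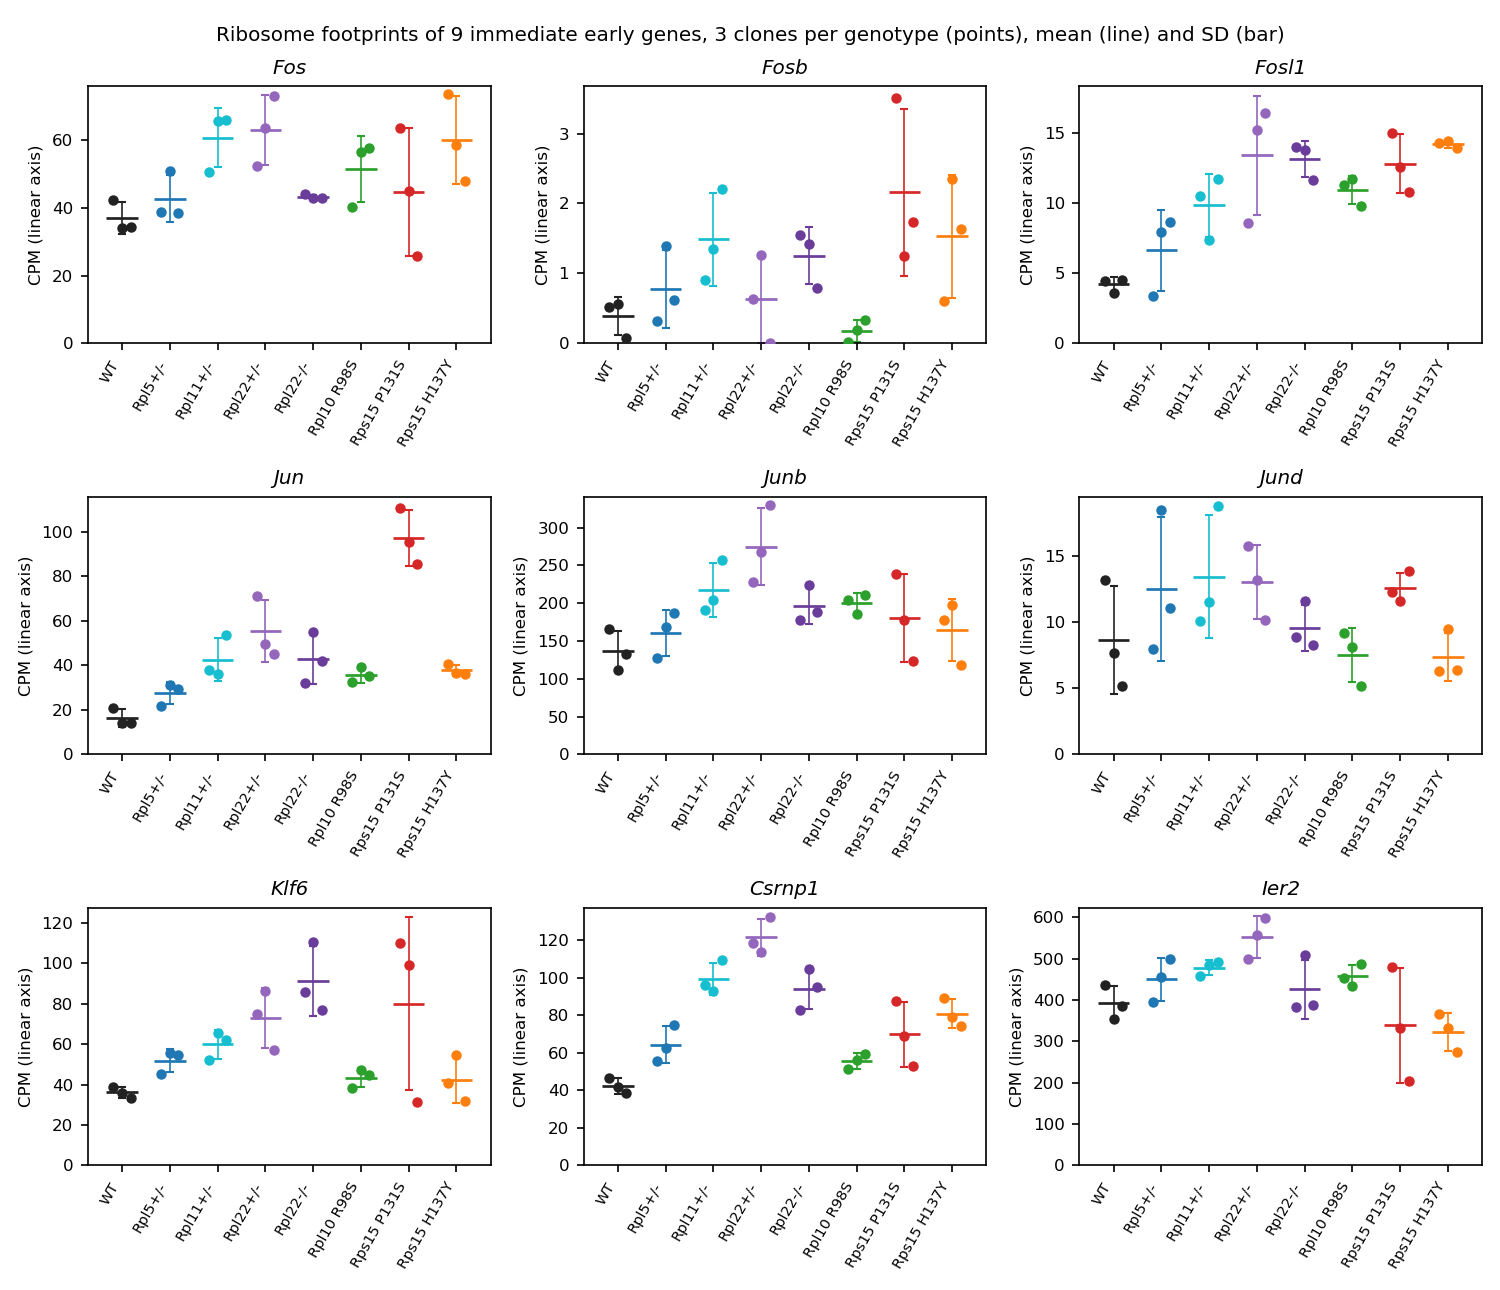
Footprint level in CPM (vertical axes, linear, from 0) of the same 9 genes in each clone (points) of 8 genotypes (horizontal axes), with the mean of 3 clones as a line and the SD as a bar. Csrnp1 and Jun lay above all WT clones in every mutant clone, while Jund stayed between 5.17 and 18.8 CPM throughout. Csrnp1 footprints in Rpl22+/- against WT were part of the choice of genes.

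The values that led to the choice of the genes come from Rpl22+/- against WT. Fosl1 RNA was 16.96, 19.5 and 18.9 CPM in clones 13, 16 and 60, a log2 change of 1.55 ± 0.25. Csrnp1 footprints were 119, 114 and 133 CPM, a log2 change of 1.52 ± 0.16. In RNA, 7 of the 9 genes had all Rpl22+/- clones above WT and 1, Ier2, all below, where 30.1% of all genes had clones that did not overlap in either direction; in footprints 7 of 9 were all above, where 20.4% did not overlap. Nothing is read from these counts, since the contrast was used for the choice. Jun footprints were 71.0, 49.5 and 45.3 CPM (1.81 ± 0.24) and Klf6 RNA 247, 222 and 202 CPM (1.08 ± 0.20). Without clone 60, whose footprint library was the shallowest, the Csrnp1 footprint change was 1.45 ± 0.17, that of Jun 1.89 ± 0.25 and that of Fosb 1.74 ± 0.96 in place of 0.62 ± 1.20, with 0 Fosb footprint counts in clone 60.

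The Rpl22-/- and Rpl22+/- clones were also set side by side. Mean RNA in Rpl22-/- and Rpl22+/- was 17.4 and 18.5 CPM for Fosl1, 297 and 299 CPM for Jund, 218 and 224 CPM for Klf6 and 168 and 176 CPM for Csrnp1. For Fos the 3 Rpl22-/- clones lay below the 3 Rpl22+/- clones in RNA (35.3 against 47.0 CPM on average; -0.41 ± 0.19) and in footprints (43.4 against 63.1 CPM; -0.50 ± 0.24), as a description. All Rpl22-/- clones were lower in footprints of Junb (196.6 against 274.9 CPM; -0.46 ± 0.22) and Csrnp1 (94.2 against 121.5 CPM; -0.36 ± 0.15) as well. Without the clone labelled 30 these differences were -0.29 for Fos RNA, and -0.50, -0.56 and -0.45 for footprints of Fos, Junb and Csrnp1.

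The footprint to RNA ratio of a gene, an estimate of how heavily its messenger RNA is loaded with ribosomes, was tested as the footprint change beyond the RNA change. Limma voom without a clone term called 0 of 9 genes in each of the 7 tested comparisons. The share of all genes called was 0% in Rpl5+/-, 0% in Rpl11+/-, 0.00603% in Rpl22-/-, 0.314% in Rpl10 R98S, 3.66% in P131S, 3.16% in H137Y and 0.597% between P131S and H137Y. At an unadjusted p under 0.05 there were 0, 1, 2, 0, 2, 2 and 0 of the 9 genes in that order. The share of all genes at that unadjusted threshold is not given here, so nothing is read from these counts. EdgeR called 0 in all comparisons, and DESeq2 called 3: Jun in Rpl22-/- and Fos and Jun in P131S.

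All 7 differences with an unadjusted p under 0.05 were in Fos or Jun. The Fos ratio was 0.810, 0.742 and 0.691 in WT clones and 1.61, 1.56 and 1.298 in P131S clones, with no overlap, and 1.13 to 1.61 in H137Y. For Jun it was 0.391 to 0.450 in WT, 0.726 to 0.843 in P131S, 0.758 to 1.06 in Rpl22-/- and 0.489 to 0.974 in H137Y. Differences without a clone term were 1.01 ± 0.33 for Fos in P131S (adjusted p = 0.0832), 0.82 ± 0.31 for Fos in H137Y (0.164), 0.92 ± 0.29 for Jun in P131S (0.0696) and 1.19 ± 0.31 for Jun in Rpl22-/- (0.393). With the clone as a block, which pairs the RNA and footprint library of 1 lysate, these 4 passed: 1.02 (adjusted p = 0.000343), 0.83 (0.00102), 0.90 (0.0105) and 1.17 (0.048). The last did not pass when the block was made from per-clone log ratios. The other 3 did not pass with the block: 0.71 for Fos in Rpl22-/- (adjusted p = 0.0532), 0.57 for Jun in H137Y (0.151) and 0.81 for Jun in Rpl11+/- (0.549). Without P131S clone 20 the Fos difference also passed with no block (1.10, adjusted p = 0.0475), and without the clone labelled 30 the Jun difference in Rpl22-/- was 1.07 (0.786). For Jund the mean ratio was 0.0437 in WT and between 0.0263 and 0.0518 in the mutants, with WT clones from 0.0260 to 0.0644.

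**Figure D4:**
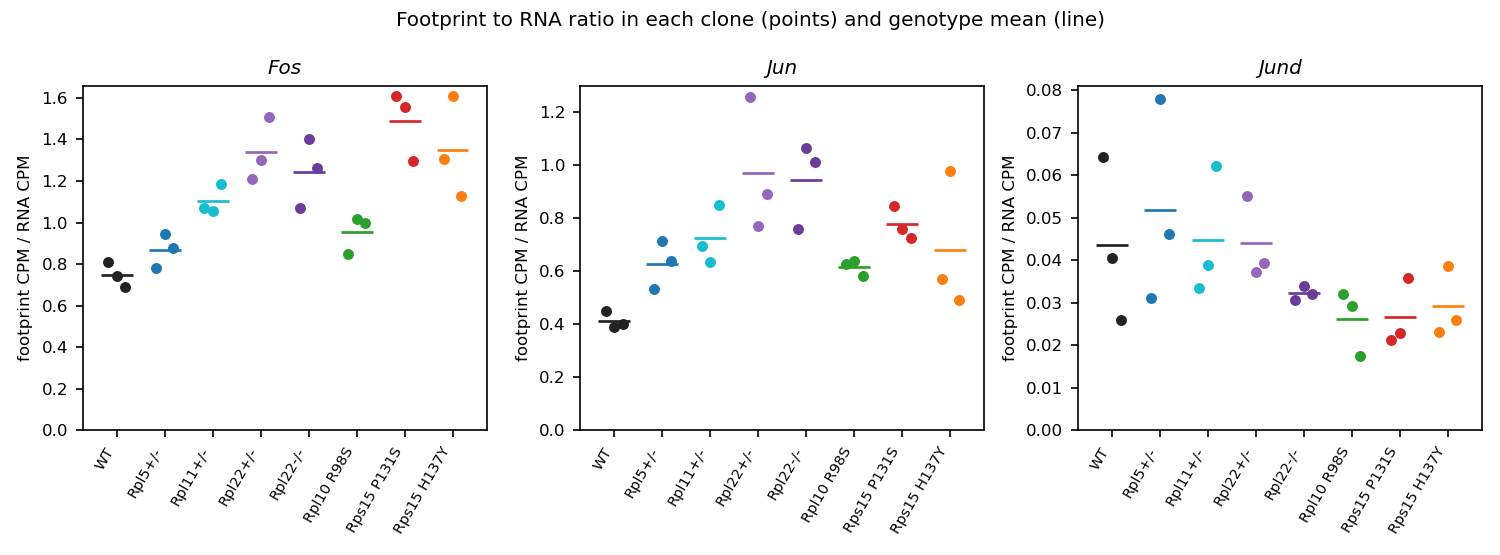
Ratio of footprint CPM to RNA CPM (vertical axes, linear, from 0) for Fos, Jun and Jund in each clone (points) of 8 genotypes (horizontal axes), with the genotype mean as a line. All P131S clones lay above all WT clones for Fos (1.298 to 1.61 against 0.691 to 0.810) and Jun (0.726 to 0.843 against 0.391 to 0.450), and the Jund clones of the groups overlapped.

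The 2 substitutions of Rps15 were compared with each other directly, without WT. In RNA, 4 of 9 genes were called higher in P131S than in H137Y and 1 lower, where 25.5% of all genes were called, and in footprints 1 of 9 was called, where 4.03% were. Jund RNA was 386 to 578 CPM in P131S against 245 to 273 CPM in H137Y (0.93 ± 0.12, adjusted p = 1.69e-05). Jun RNA was higher by 1.10 ± 0.18 (0.000209) and Jun footprints by 1.35 ± 0.20 (0.000556), both without overlap. Klf6 RNA was higher by 0.87 ± 0.20 (0.00429). Fosb RNA was higher by 0.74 ± 0.24 (0.0293) and Fos RNA lower by a log2 change of -0.67 ± 0.19 (0.0141), with overlapping clones in both. The Fosb call was lost without P131S clone 24 (0.46, 0.144) or 63 (0.72, 0.0602) or H137Y clone 2 (0.74, 0.0592) or 6 (0.62, 0.0911). The Fos call was lost without P131S clone 20 (-0.402, 0.119) or H137Y clone 16 (-0.49, 0.0884). Fitted on the 6 RNA libraries of these genotypes alone, only the Jund call remained, and the Jun RNA difference of 1.09 had an adjusted p of 0.0707. Fosl1 RNA, 18.7 against 19.3 CPM, differed by -0.03 ± 0.19, less than the spread between clones. Klf6 footprints (0.80 ± 0.33, adjusted p = 0.191) passed without P131S clone 20 (1.396, 0.000435) and in DESeq2 (0.0259).

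Clones of a genotype also differed among themselves, and they did so for many of these genes together. Clone 20 of P131S had the lowest RNA of its genotype for all 9 genes, and clone 24 the highest for all 9. Clone 6 of H137Y was lowest for 8 of 9 and clone 776 of Rpl22-/- for 8 of 9. After the genotype means were removed, Ier2 RNA over the 24 libraries had a correlation of 0.915 with Junb, 0.892 with Fos and 0.851 with Csrnp1, while Fosl1 and Klf6 had 0.292. These are descriptions over libraries that share genotypes and processing. Ranks of these clones over all genes, and such correlations for other gene pairs, were not counted. Nothing particular to these genes is therefore read from them. In footprints the order was looser: clone 20 was lowest for 7 of 9 and H137Y clone 6 for 0 of 9.

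Other genes of the same route were counted from lists chosen with earlier results known, and each list count is read beside the share of all genes called in that comparison. Without the clone labelled 30, that share in Rpl22-/- RNA was 2.4%. Of 6 genes for serum response factor and its cofactors, all tested, Srf itself was called higher in RNA in each tested comparison with WT. Srf RNA was 52.5 to 57.9 CPM in WT, 74.99 to 86.99 in Rpl5+/- (0.58 ± 0.10, adjusted p = 0.0201), 91.9 to 126 in Rpl11+/- (0.90 ± 0.10, 2.85e-05), 104 to 118 in Rpl22-/- (1.00 ± 0.10, 6.5e-06; 0.95 and 0.000141 without the clone labelled 30), 89.6 to 98.9 in Rpl10 R98S (0.77 ± 0.10, 5.72e-05), 118 to 135 in P131S (1.21 ± 0.10, 4.43e-08) and 89.3 to 107 in H137Y (0.77 ± 0.10, 5.69e-06). No mutant clone overlapped WT. The ternary complex factor genes Elk1 and Elk3 were lower in P131S (-0.80 ± 0.12, adjusted p = 1.51e-05, and -0.46 ± 0.17, 0.035) and H137Y (-0.62 ± 0.11, 0.00019, and -0.71 ± 0.18, 0.00317). Srf footprints were 2.04 to 2.599 CPM in WT and 1.604 to 7.95 CPM in mutant clones.

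Of 28 other immediate early genes, a list that holds Srf too, 19 were tested in RNA. In Rpl11+/- 5 were called higher and 1 lower, where 12.5% of all genes were called (median log2 change 0.36, against -0.001 over all genes). In Rpl22-/- the counts were also 5 and 1, with 5.11% of all genes called (median 0.319 against 0.006), and without the clone labelled 30 only Srf was called. P131S had 6 higher and 5 lower, with 47.2% of all genes called (median -0.072 against -0.019), and H137Y 4 and 4, with 41.4% (0.118 against -0.005). Trib1, a pseudokinase gene, was higher in Rpl11+/- (1.61 ± 0.48, adjusted p = 0.0339), Rpl22-/- (1.98 ± 0.48, 0.0169; 1.93 and 0.0605 without the clone labelled 30), P131S (1.58 ± 0.48, 0.0113) and H137Y (2.22 ± 0.46, 0.000696), from 1.38 CPM in WT. Egr2 and Egr3, zinc finger relatives of Egr1, were lower: Egr2 fell from 21.3 CPM in WT to 8.98 in P131S (-1.42 ± 0.27, 0.000266) and 10.6 in H137Y (-1.07 ± 0.25, 0.00185), and Egr3 from 3.65 CPM to 0.630 (-2.54 ± 0.30, 1.68e-06) and 0.870 (-2.06 ± 0.27, 4.94e-06). Egr3 was also called lower in Rpl11+/- (1.69 CPM, -1.13 ± 0.225, adjusted p = 0.00294) and Rpl10 R98S (2.32 CPM, -0.67 ± 0.21, 0.0346). Klf10 footprints in Rpl10 R98S were 11.9 against 29.4 CPM in WT (-1.299 ± 0.26, 0.0107).

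Among 12 dimer partners and rivals of Fos and Jun, 10 were tested. Mafk, a small MAF protein gene, was called higher in RNA in Rpl11+/- (1.16 ± 0.21, adjusted p = 0.0022), Rpl22-/- (1.20 ± 0.22, 0.00232; 1.19 and 0.0132 without the clone labelled 30), Rpl10 R98S (0.86 ± 0.22, 0.0136), P131S (1.20 ± 0.21, 0.000157) and H137Y (1.07 ± 0.21, 0.000566). Jdp2, which encodes a repressor that pairs with Jun proteins, was lower in Rpl11+/- (-1.01 ± 0.24, 0.0122), P131S (-0.97 ± 0.24, 0.00332) and H137Y (-2.43 ± 0.31, 7.65e-06). In all, RNA counts were 1 higher and 3 lower in Rpl11+/- (12.5% of all genes called), 2 and 1 in Rpl22-/- (5.11%), 1 and 0 in Rpl10 R98S (13.4%), 2 and 4 in P131S (47.2%) and 1 and 4 in H137Y (41.4%). The Rpl22-/- counts were 1 and 0 without the clone labelled 30. Fosl2, the remaining Fos family gene, was lower in footprints in P131S (-0.65 ± 0.20, 0.0264) and H137Y (-1.04 ± 0.22, 0.00356).

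The list for the route from the IL-3 receptor through Ras, ERK and JNK held 21 genes, all tested. In P131S RNA 5 were called higher and 4 lower (median 0.047; 47.2% of all genes called), in H137Y 4 and 8 (median -0.054; 41.4%), and in Rpl11+/- 0 and 2 (12.5%). Sos1, the exchange factor that loads Ras, was lower in Rpl5+/- (-0.49 ± 0.09, adjusted p = 0.0201), Rpl11+/- (-0.67 ± 0.09, 0.000106), Rpl22-/- (-0.39 ± 0.08, 0.00711; -0.34 and 0.0648 without the clone labelled 30), P131S (-0.59 ± 0.08, 1.28e-05) and H137Y (-0.61 ± 0.08, 8.81e-06). Csf2rb, the common beta chain, rose from 530 CPM in WT to 1524 in P131S (1.52 ± 0.21, 1.9e-05) and 992 in H137Y (0.85 ± 0.21, 0.00384). Jak2 was called lower in the footprint to RNA ratio in Rpl10 R98S (-1.37 ± 0.28, adjusted p = 0.0148), P131S (-2.003 ± 0.32, 0.000259) and H137Y (-1.34 ± 0.28, 0.00415).

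Genes for negative feedback on ERK, 9 of 10 tested, moved in both directions. RNA counts were 2 higher and 5 lower in P131S (median -0.535; 47.2% of all genes called), 2 and 4 in H137Y (-0.229; 41.4%) and 1 and 3 in Rpl11+/- (-0.093; 12.5%). Dusp6, the ERK phosphatase gene, fell from 108 CPM in WT to 33.1 in P131S (-1.78 ± 0.16, adjusted p = 1.21e-07) and 42.5 in H137Y (-1.34 ± 0.15, 1.71e-06), while Dusp2 rose from 9.83 CPM to 27.9 (1.51 ± 0.19, 3.25e-06) and 21.0 (1.10 ± 0.19, 0.000143). These RNA changes were not limited to the Rps15 substitutions. Dusp6 RNA was lower in Rpl11+/- (-0.476, adjusted p = 0.0385), Rpl22-/- (-0.529, 0.0427) and Rpl10 R98S (-0.692, 0.00481). Its Rpl22-/- change did not pass without the clone that went against its label (-0.484, 0.177). Dusp2 RNA was higher in Rpl5+/- (0.925, adjusted p = 0.0428), Rpl11+/- (1.453, 0.000108) and Rpl10 R98S (1.064, 0.00137). Dusp2 footprints rose in Rpl11+/- as well (4.41 against 26.1 CPM; 2.51 ± 0.28, 0.00021). Spred1, an inhibitor of Ras signalling, had a lower footprint to RNA ratio in P131S (-1.90 ± 0.34, 0.000838) and H137Y (-1.26 ± 0.29, 0.0111).

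Decay factors of AU-rich messenger RNAs, such as Fos and Jun, were 8 genes, all tested. In RNA 3 were called higher and 3 lower in P131S (47.2% of all genes called) and 1 and 1 in H137Y (41.4%), with medians of -0.035 and 0.052. Zfp36, which encodes tristetraprolin, fell in RNA from 54.3 CPM in WT to 35.3 in P131S (-0.73 ± 0.22, adjusted p = 0.0119) and 28.3 in H137Y (-0.94 ± 0.22, 0.0026). Of 8 textbook targets of AP-1, 5 were tested. Plaur, the urokinase receptor gene, rose in RNA from 7.86 CPM to 17.3 in P131S (1.09 ± 0.17, 2.77e-05) and 12.8 in H137Y (0.69 ± 0.17, 0.00329), while Hmox1 fell by 0.95 ± 0.14 (1.93e-05) and 0.93 ± 0.14 (2.8e-05). With 3 lower and 1 higher in P131S and 2 lower and 1 higher in H137Y, beside the same shares of all genes, the medians were -0.461 and -0.306.

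The genes whose RNA pattern over the 24 RNA libraries was most like each member were listed by Pearson correlation of log2 CPM, as a description. For Fosl1 they were Pdlim7 (0.894) and Mafk (0.885), and for Fosb Pdlim7 (0.885) and Taf7 (0.882). Jun was most like Mrps21 (0.904) and Tomm6 (0.891), Jund like Gm11175 (0.959) and Pcbp4 (0.859), and Junb like Mcl1 (0.83) and Ache (0.805). Fos was most like Vgll4 (0.871) and Dennd4a (0.85), Ier2 like Vps37a (0.903) and Ier3 (0.901), Csrnp1 like Ppp1r15a (0.87) and Zswim8 (0.845), and Klf6 like Actg1 (0.794) and Stk17b (0.784). Libraries of a genotype share much of these patterns.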

How the data were processed

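RNA and ribosome footprints were sequenced from 24 Ba/F3 clones, 3 per genotype. The authors deposited 1 table of estimated counts per gene, not normalized, for 48 libraries; per the submitters' processing notes STAR 2.6.1d, Salmon 1.4.0 and DESeq2 1.30 were used with the build GRCm38, and the roles of these tools and the use of strand are not given in the sources used here. Library totals range from 13029073 to 38258559 counts for RNA and 15598994 to 72044439 for footprints.

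Genes with at least 10 counts at the median library size in 3 libraries and at least 15 in total were tested (12814 in RNA, 16214 in footprints, 16573 for the ratio). Counts were scaled by trimmed mean of M values (TMM), also for CPM, and fitted by limma 3.58.1 voom with robust moderation, 1 mean per genotype and all genotypes in 1 fit, in R 4.3.3; the ratio was the interaction of assay and genotype over 48 libraries. P-values are two-sided and adjusted by Benjamini-Hochberg over all genes of a comparison. The design had named limma voom as the main test; edgeR 4.0.16 and DESeq2 1.42.0 on rounded counts, and fits of the gene lists without the clone labelled 30, were added after the data were seen. Code was tested on simulated data. Alternatives were another scaling, no filter, limma-trend, rounding, fits of 2 genotypes, leaving out each clone, and the clone as a block.

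RNA and footprint libraries of a clone come from 1 lysate, per the labels, so clone numbers pair them: deviations from the genotype means correlated at 0.089 to 0.4 for the 24 same-clone pairs and at -0.283 to -0.02 for the 48 other pairs, over 12072 genes. Deviations within a genotype cancel out, so positive same-clone values force lower values in the other pairs, which add no separate support. The genes and all gene lists were chosen with earlier results of these data known. All 10 members are named; of each list, at most the 3 called genes with the largest change per comparison are named, and for each member the 2 genes most like it in RNA over the libraries. Promoter letters were searched with Python 3 over the RefSeq table.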

Additional observations from a re-analysis of the deposited data

How the results depend on the processing

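Over all member values, 0 called changes reversed, 82 of 598 refits of called values lost the call, 48 refits of uncalled values gained one, and uncalled values changed sign in 103 of 1984 refits. Fits of the 2 genotypes compared alone changed the number of members called most: in RNA to 4 for Rpl5+/-, 8 for Rpl22-/-, 6 for Rpl10 R98S, 3 for H137Y and 1 between P131S and H137Y, and in footprints to 1 for Rpl11+/-. They have fewer samples to estimate the spread. For RNA in Rpl10 R98S, limma-trend, edgeR and DESeq2 each called 4 in place of 2, and DESeq2 called 1 for RNA in Rpl5+/- and 2 for footprints between P131S and H137Y. Without the filter 3 footprint members were called in P131S. For the ratio, the clone as a replicate block called 1 in Rpl22-/-, 2 in P131S and 1 in H137Y, and the block by per-clone log ratio 0, 2 and 1. DESeq2 called 1 in Rpl22-/- and 2 in P131S. The cause of these differences was not tested. Scaling by median of ratios and rounding kept every number of called members within 1.5 times. With 1 clone left out, the lowest and highest numbers of RNA members called were 0 and 0 (Rpl5+/-), 4 and 5 (Rpl11+/-), 2 and 5 (Rpl22-/-), 2 and 2 (Rpl10 R98S), 6 and 7 (P131S), 2 and 5 (H137Y), and 4 and 4 (P131S against H137Y). For footprints they were 0 and 0 (Rpl5+/-), 1 and 3 (Rpl11+/-), 1 and 3 (Rpl22-/-), 0 and 2 (Rpl10 R98S), 3 and 4 (P131S), 3 and 4 (H137Y), and 1 and 2 (P131S against H137Y). For the ratio they were 0 and 1 in P131S and 0 and 0 in the other comparisons. The block changed no call of the ratio other than those named. Apart from RNA and footprints without the clone that went against its label, shares of all genes called in these refits are not given here. A general change in calling can therefore not be told from a change in these genes. Low counts limit Egr1, which was not tested, and Fosb footprints.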
